A study of Mus musculus with 3 samples.

Results

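The opioid and cannabinoid receptors of the mouse dorsal root ganglion (DRG) were followed in single nuclei through 7 genes chosen by name from the 32227 genes of the count tables. They were the opioid receptors Oprm1 (mu), Oprd1 (delta) and Oprk1 (kappa), the related nociceptin receptor Oprl1, the enkephalin precursor Penk, and the cannabinoid receptors Cnr1 and Cnr2. All 7 genes had counts in all 3 libraries. The nuclei came from lumbar (L3 to L5) DRG of C57BL/6 mice that the labels give no treatment or transgene. There was 1 adult library at 3 months and there were 2 aged libraries at 21 months, and the number of mice behind each library is not stated. A difference between ages therefore rests on 1 adult library, and its p-values measure only the spread between the 2 aged libraries. Tests between classes or subtypes of nuclei took the library as a block. Their p-values measure how far such differences vary from library to library, once a shift shared by a whole library is removed.

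Opioid and cannabinoid receptors are receptors that couple to inhibitory G proteins. When an agonist binds, the G protein slows adenylyl cyclase, its beta-gamma subunits open inwardly rectifying potassium channels and close presynaptic calcium channels, and less transmitter is released. In the DRG, mu, delta and kappa receptors and the CB1 receptor encoded by Cnr1 are known for damping the input from primary afferents to the spinal cord, and the CB2 receptor encoded by Cnr2 is known mainly from immune cells.

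Barcodes with more than 1000 genes were taken as nuclei, which left 11518 adult nuclei, 5130 of aged replicate 1 and 2611 of aged replicate 2, from total counts of 69045987 to 167664164 unique molecular identifiers (UMIs) per library. All libraries are labelled male, but Xist, which is transcribed from the inactive X chromosome of females, had a UMI in 66.3% to 85.5% of nuclei, and 4 genes of the Y chromosome had one in 10.95% to 14.9%. The libraries thus go against their labels in this respect, and no comparison uses the sex. The age also differs between the sample labels and the text of the series, and the sample labels were used. Only 1 barcode was shared between the adult library and each aged library, and 0 between the aged libraries. The aged libraries are not 1 library deposited again, since their counts differed by more than counting noise (chi-square per degree of freedom 26.9 over neuron-like, 2.62 over fibroblast-marker and 2.09 over SGC-like sums).

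Clusters were named from marker genes. Of the nuclei, 17562 fell in classes, among them 8244 neuron-like nuclei. The 12 neuron markers, which served to name them, summed to 8014 to 9639 CPM (UMIs of the genes over all UMIs of a sum, times 1e6) in neuron-like sums and were all detected in every other class too, at up to 4183 CPM. The other classes tested were like satellite glial cells (SGCs), myelinating Schwann cells (MSCs), endothelial cells, myeloid cells and lymphocytes. In 2 more, the leading genes of a cluster went against the name from its markers. One cluster met the rule for non-myelinating Schwann cells with 4 of 7 markers. The 7 markers summed to 5005 to 6972 CPM there, the highest of any class. Its 10 leading genes, however, held 2 SGC markers (Cdh19 and Lgi4) and 0 of its own, and it is called here by its gene Rasgef1c. Of the 3 clusters with fibroblast markers, 1 had 2 perineurial markers (Cldn1 and Itgb4) and 0 fibroblast markers among its 10 leading genes. The sums of the 3 clusters are therefore called fibroblast-marker sums. Their summed fibroblast markers were at 3810 to 4572 CPM, against at most 1238 CPM in any other class. The age tests of the Rasgef1c and fibroblast-marker sums are given by their count only. The SGC-like cluster held 6 of 8 SGC markers over 2-fold above the other clusters. Its summed SGC markers, at 2556 to 2982 CPM, were nevertheless lower than in the Rasgef1c nuclei (4770 to 5426 CPM). Its summed markers of non-myelinating Schwann cells, at 3392 to 4129 CPM, were higher than in any other class but the Rasgef1c nuclei. The neuron-like nuclei fell into 9 subtypes, of which 1 met no subtype name and is called here by its gene Kcnh5. Subtype names are given below without the word like. Levels are given as CPM over the nuclei of 1 class or subtype in 1 library, and a mean is over the 3 libraries with its SD. Where 3 values follow each other, they are those of the adult sum, aged replicate 1 and aged replicate 2, in this order. Levels are compared between classes, subtypes and libraries for 1 gene, and not between genes, since the tags are not scaled for length. A smaller number of transcripts per nucleus and a smaller number of expressing nuclei both lower such a sum.

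The mu, delta and CB1 receptors had their highest mean level in neuron-like sums, and the CB2 receptor in immune ones. In the plot of levels by class, the neuron-like sums stand above the other classes in every library for Oprm1 and Oprd1, and for Cnr1 in the aged libraries, the fibroblast-marker sums for Penk and the myeloid-like and lymphocyte-like sums for Cnr2. Between 89.6% (Oprk1) and 94.8% (Oprd1) of the UMIs of the 4 opioid receptors and Cnr1 lay in neuron-like nuclei, against 63.6% for Penk and 37.0% for Cnr2. Neuron-like nuclei were 42.7%, 52.8% and 54.3% of the nuclei in classes, with medians of 7446, 5763 and 7529 UMIs. They held most UMIs of all genes, a larger share than those of Penk and Cnr2. A large share there thus does not by itself mark a gene as neuronal. Of the 5 members that passed the low-count filter, 4 passed the test of neuron-like sums against the mean of the log levels of the other 7 classes. This filter left out Oprk1 and Oprl1. Oprd1 passed it only through the neuron-like sums, Penk only through the fibroblast-marker sums and Cnr2 only through the immune ones. For these genes, being high in those classes was needed to be tested at all, so that their counts of passes are not independent of the filter. Of all 14498 genes tested, 66.4% passed in either direction, so that a pass by itself sets these genes apart from few others. The share was 47.7% in the test of myeloid-like sums, 46.3% for SGC-like, 37.3% for MSC-like, 35.2% for lymphocyte-like, 33.8% for fibroblast-marker, 28.2% for endothelial-like and 23.1% for Rasgef1c sums. Over all 8 classes, 11 of 40 tests of the members passed.

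**Figure D1:**
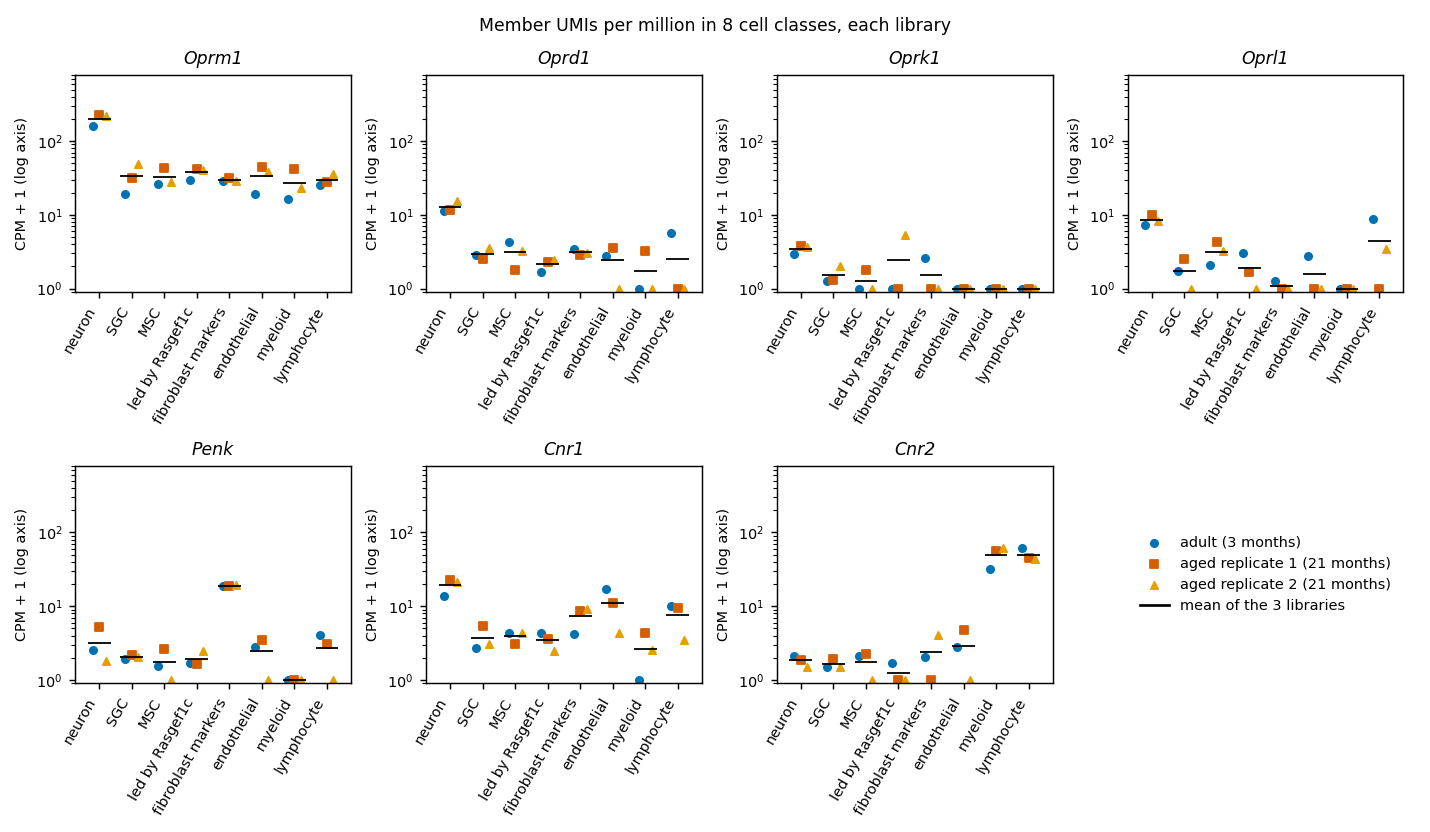
Level of each gene in 8 classes of nuclei ("like" left out), as CPM + 1 on a log axis. Points are the 3 libraries by age and replicate, and black lines are their means; the neuron points lie at 160.0 to 224 CPM for Oprm1 and at 12.7 to 22.0 CPM for Cnr1, and the myeloid and lymphocyte points at 30.8 to 61.1 CPM for Cnr2.

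Oprm1 encodes the receptor of morphine and of the endogenous enkephalins and endorphins. It lies on chromosome 10 (GRCm38, 6758506 to 7038198, plus strand). Its neuron-like level was 160.0, 224 and 218 CPM. In the other 7 classes tested it lay between 15.4 CPM (myeloid-like, adult) and 47.8 CPM (SGC-like, aged replicate 2), so that the groups did not overlap in any library. The difference was 2.88 on the log2 scale (SE 0.12, 7.36-fold, adjusted p 1.4e-15, edgeR quasi-likelihood test). For a class outside neurons, the mean of the others held the neuron-like sums, which set a lower result in advance. Oprm1 means were 28.4 CPM in fibroblast-marker and 28.7 CPM in lymphocyte-like sums. These lay within the 26.1 (myeloid-like) to 36.6 CPM (Rasgef1c) of the other classes outside neurons. Among the other classes, fibroblast-marker (-0.57, SE 0.18, adjusted p 0.019) and lymphocyte-like sums (-0.76, SE 0.25, adjusted p 0.021) were lower than the mean of the rest, neurons included. The first did not pass without aged replicate 1 (adjusted p 0.29) or 2 (0.075), nor the second without the adult library (0.082) or aged replicate 1 (0.24), and neither with free RNA subtracted (0.11 and 0.10). The antisense gene Ipcef1 shares 152403 bases with Oprm1, and no source used here says that reads were counted by strand. Ipcef1 was at 186 ± 75.2 CPM (SD, n = 3) in lymphocyte-like and 154 ± 32.7 CPM in myeloid-like sums, and at 3.21 ± 0.40 CPM in neuron-like sums.

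The Oprm1 counts outside neurons stood beside those of free RNA. Barcodes with 10 to 100 UMIs, which hold RNA set free from broken cells, had Oprm1 at 109, 130.1 and 149 CPM. The 7 other classes had 0.141 to 0.339 times that level, and the neuron-like sums 1.46 to 1.72 times. The summed neuron markers had 0.046 to 0.365 times their free level in the same 7 classes. In the plot of these ratios, Oprm1 lies above the free level in neuron-like sums and under it in the other classes, while the neuron markers lie under it in neuron-like sums too (0.575 to 0.842).

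**Figure D2:**
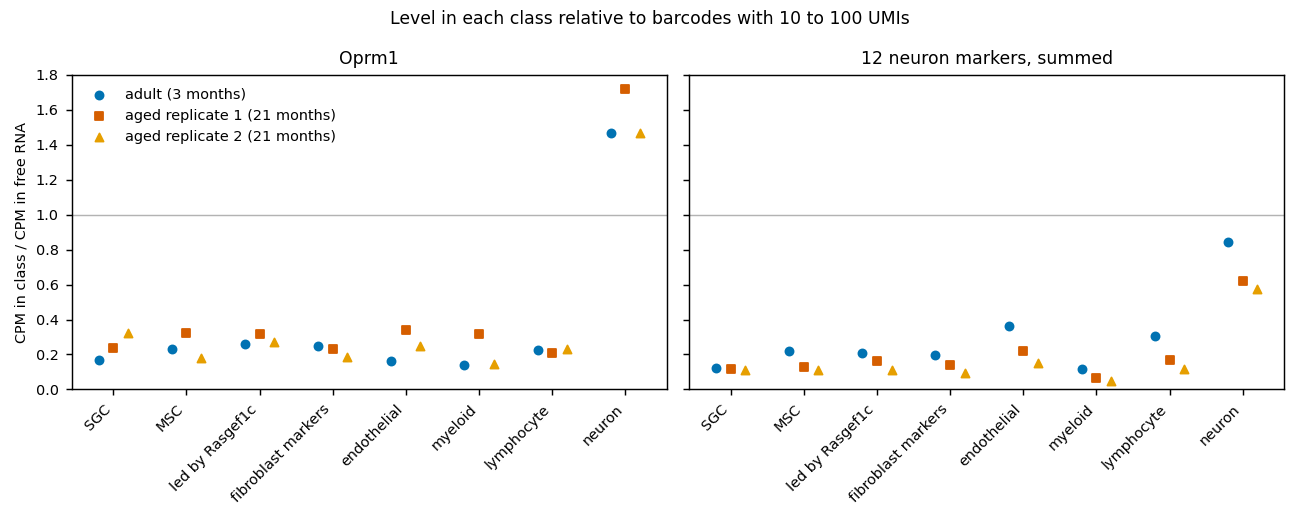
Level in each class divided by the level in free RNA (barcodes with 10 to 100 UMIs), for Oprm1 on the left and the 12 neuron markers on the right. Points are the 3 libraries; Oprm1 lies at 1.46 to 1.72 in neuron-like sums and at 0.141 to 0.339 in the other classes.

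Oprd1, on chromosome 4 (132110726 to 132144486, minus strand), encodes the delta receptor, which enkephalins bind. Its neuron-like level was 10.5, 10.8 and 14.3 CPM, and the mean of the other classes was 1.58 CPM. No other class reached 5 CPM in any library. The difference was 2.97 (SE 0.27, 7.85-fold, adjusted p 8.8e-10). Oprd1 passed the low-count filter only through the neuron-like sums, so that a high level there was needed for the test.

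Oprk1 (chromosome 1, 5588466 to 5606131, plus strand) encodes the receptor of dynorphins, and Oprl1 (chromosome 2, 181715016 to 181720985, plus strand) that of nociceptin. Both were low. Neuron-like Oprk1 was at 1.98, 2.82 and 2.68 CPM, and neuron-like Oprl1 at 6.28, 8.99 and 7.21 CPM. Outside neurons the highest Oprk1 level among the classes tested was 4.30 CPM, from 3 UMIs in Rasgef1c nuclei of aged replicate 2, and the highest Oprl1 level was 7.66 CPM, from 5 UMIs in lymphocyte-like nuclei of the adult library. Both sit above the neuron-like level of their library, and rest on so few UMIs that no order can be read from them.

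Cnr1 (chromosome 4, 33924593 to 33948831, plus strand) was at 12.7 CPM in adult neuron-like sums and at 22.0 and 20.3 CPM in the aged ones. The difference from the other classes was 2.34 (SE 0.22, 5.07-fold, adjusted p 2.5e-09), and 3.48 without the adult library. The adult endothelial-like sum held 16.2 CPM from 9 UMIs, above the adult neuron-like level, while the aged endothelial-like sums held 10.1 and 3.36 CPM. The endothelial-like difference (1.15, SE 0.46) did not pass (adjusted p 0.062).

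Cnr2 (chromosome 4, 135895394 to 135920207, plus strand) encodes a receptor of B cells and macrophages. It was at 59.7, 43.6 and 42.0 CPM in lymphocyte-like sums and at 30.8, 54.3 and 61.1 CPM in myeloid-like sums. Both classes lay above every other class tested in every library, where the highest was 3.78 CPM. The adult myeloid-like value rests on 4 UMIs in 53 nuclei, whereas 49 and 39 UMIs were counted in the aged ones. The differences were 5.19 (SE 0.37, 36.6-fold, adjusted p 4.0e-11) for myeloid-like sums, among 47.7% of genes that passed, and 4.75 (SE 0.37, 26.8-fold, adjusted p 2.4e-10) for lymphocyte-like sums, among 35.2%. Cnr2 passed the low-count filter only through these immune classes, so that a high level there was needed for the tests. The lymphocyte-like cluster held markers of both T and B cells. Those of T cells summed to 739 to 1493 CPM there and to at most 134 CPM in any other class. Those of B cells summed to 2538 to 5227 CPM. This range overlapped the 3139 to 3824 CPM of the same list in the sums of 80 mural-like nuclei, those of blood vessel walls. The lymphocyte-like sums also held granulocyte markers at 536 to 1646 CPM, against at most 147 CPM in any other class. Their MSC markers summed to 1305 to 5811 CPM and their myeloid markers to 631 to 1490 CPM. The part of RNA from such cells in the Cnr2 level was not tested. Cnr2 had a UMI in 10.1% to 11.6% of lymphocyte-like and 7.55% to 20.7% of myeloid-like nuclei, with medians of 2003 to 2833 and 2245 to 3924.5 UMIs per nucleus, and in 0.156% to 0.714% of SGC-like nuclei, with medians of 3105 to 7883. In neuron-like nuclei Cnr2 was at 1.13, 0.882 and 0.496 CPM, below its free level of 1.82 to 2.61 CPM. For a class outside the immune ones, the mean of the others held both immune classes, which set a lower result in advance. Means outside the immune classes were 0.836 (neuron-like), 0.624 (SGC-like), 0.771 (MSC-like), 0.224 (Rasgef1c), 1.37 (fibroblast-marker) and 1.86 CPM (endothelial-like). Neuron-like sums were thus not the lowest of these. The difference of neuron-like sums (-1.46, SE 0.51) passed with an adjusted p of 0.015, and did not pass among nuclei with more than 2000 genes (-0.17, adjusted p 0.90), without the adult library (-1.47, adjusted p 1.0) or without aged replicate 1 (-1.41, adjusted p 0.072). SGC-like (-2.09, SE 0.67, adjusted p 0.013) and Rasgef1c sums (-3.47, SE 1.04, adjusted p 0.017) were lower too, which did not hold without the adult library for SGC-like sums (adjusted p 1.0) or without either aged library for Rasgef1c sums (adjusted p 0.25 and 0.056). The Rasgef1c value rests on 1 UMI, in the adult library, and ran from -6.96 without that library to -2.56 without aged replicate 1.

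Penk, on chromosome 4 (4133531 to 4138819, minus strand), encodes the precursor that is cut into Met-enkephalin and Leu-enkephalin. Among the classes tested, its highest sums were those with fibroblast markers, with 17.8, 17.7 and 18.3 CPM. The difference from the other classes was 4.66 (SE 0.42, 25.3-fold, adjusted p 7.4e-09), among 33.8% of genes that passed for this class. Penk passed the low-count filter only through the fibroblast-marker sums, so that a high level there was needed for the test. Among the 3 clusters of these sums, the one led by Slc47a1 and Slc26a7 held 61, 25 and 17 Penk UMIs, or 37.2, 55.9 and 45.4 CPM. The others held at most 4.20 CPM in any library. The UMIs of the cluster led by Slc47a1 and Slc26a7 came from 40, 8 and 10 nuclei, and in aged replicate 1 the 3 highest nuclei held 72% of them. Neuron-like Penk was at 1.54, 4.21 and 0.827 CPM, and its difference (1.26, SE 0.59) did not pass (adjusted p 0.063), but passed without aged replicate 2 (1.56, adjusted p 0.043). A noncoding antisense gene shares 499 bases with Penk and was at 5.14 ± 3.93 CPM (SD, n = 3) in fibroblast-marker sums.

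Within the neuron-like nuclei each receptor had its own order of subtypes. The test set each subtype against the mean of the log levels of the other 8, with the library as a block, and 6 members passed the filter, all but Cnr2. Of their 54 tests, 29 passed, 17 of them higher and 12 lower. Among all 16389 genes, 25.6% (Trpm8) to 52.2% (Kcnh5) passed in a given subtype, so the position of a member in the order says more than the pass. The share was 50.5% for A-beta and proprioceptor, 48.3% for peptidergic C-fibre, 41.5% for Mrgprd, 36.6% for Th C-LTMR, 32.6% for Sst, 31.5% for A-fibre nociceptor and 30.3% for A-delta LTMR nuclei. The plot of levels by subtype shows these orders.

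**Figure D3:**
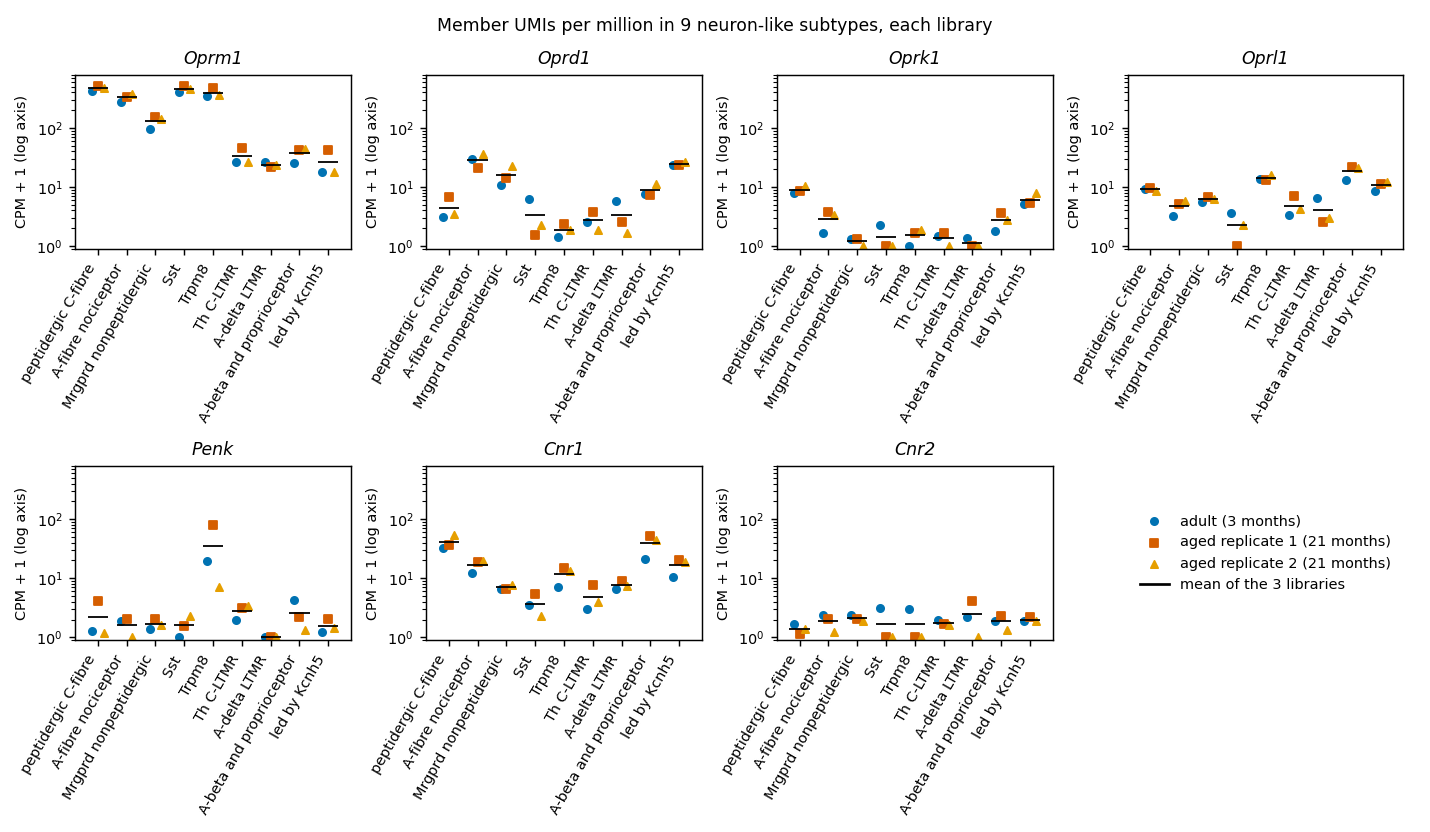
Level of each gene in 9 subtypes of neuron-like nuclei, as CPM + 1 on a log axis. Points are the 3 libraries and black lines their means; Oprm1 has a group of 4 subtypes at 274 to 514 CPM, and a group of 4 at 17.1 to 44.9 CPM, with the Mrgprd subtype between them.

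Oprm1 was highest in the subtypes of thin-fibre nociceptors, itch neurons and cold-sensing neurons. Its level was 419.6, 502 and 471 CPM in peptidergic C-fibre nuclei, and 406, 514 and 462 CPM in Sst nuclei, which carry the markers of itch neurons. The Sst cluster had 7 of 7 markers of its list, with 2 (Htr1f and Cysltr2) among its 10 leading genes. These leading genes also held Mrgpra3, a marker of another listed subtype. Oprm1 was at 348, 463 and 361 CPM in nuclei with the cold channel Trpm8, and at 274, 334 and 371 CPM in A-fibre nociceptor nuclei. Neither of the peptidergic C-fibre and Sst subtypes was the higher in every library, nor of the Trpm8 and A-fibre nociceptor subtypes, while Sst was above Trpm8 in all 3. These differences between neighbours were not tested. Mrgprd nonpeptidergic nuclei followed at 94.9, 155 and 139 CPM, below all of them in every library.

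The other 4 subtypes, A-beta and proprioceptor, Th C-LTMR, Kcnh5 and A-delta LTMR, had Oprm1 means of 22.9 to 36.0 CPM, with overlapping spreads. LTMR stands for low-threshold mechanoreceptor, a neuron of touch. These means lay within the range of the classes other than neurons. The differences were 2.26 (SE 0.11, adjusted p 5.8e-15) for peptidergic C-fibre, 2.25 (SE 0.11, adjusted p 1.4e-14) for Sst, 1.96 (SE 0.12, adjusted p 5.3e-13) for Trpm8 and 1.79 (SE 0.11, adjusted p 1.7e-12) for A-fibre nociceptor nuclei. Those of the 4 low subtypes ran from -2.34 to -1.91, and that of Mrgprd nuclei (0.30, SE 0.13) did not pass (adjusted p 0.062). The mean of Ipcef1 was 3.96 to 6.34 CPM in the 4 subtypes highest in Oprm1 and lower in each of the other 5, down to 0.920 CPM in A-delta LTMR nuclei, which were also lowest in Oprm1. Its part in the Oprm1 values was not tested. In Sst nuclei Ipcef1 ranged from 0 to 7.58 CPM over the libraries.

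An Oprm1 UMI was found in 76.8% to 79.2% of peptidergic C-fibre nuclei, with medians of 5205.5 to 8302 UMIs per nucleus. In SGC-like nuclei, with medians of 3105 to 7883 UMIs, 5.46% to 17.5% had one. With every nucleus thinned to 1000 UMIs the shares were 28.5% to 37.9% and 1.43% to 3.95%.

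Oprd1 followed another order. A-fibre nociceptor nuclei held 28.6, 20.2 and 35.3 CPM and Kcnh5 nuclei 22.2, 22.8 and 25.8 CPM, and neither was the higher in every library. Mrgprd nuclei followed at 9.90, 13.1 and 21.7 CPM. The peptidergic C-fibre nuclei, the highest in Oprm1, were at 2.05, 5.80 and 2.46 CPM, and the Trpm8 nuclei had 1, 2 and 1 Oprd1 UMIs. The differences were 2.75 (SE 0.25, adjusted p 1.3e-09) for A-fibre nociceptor, 2.56 (SE 0.26, adjusted p 7.8e-09) for Kcnh5 and 1.71 (SE 0.26, adjusted p 4.9e-06) for Mrgprd nuclei. Oprd1 was lower in Trpm8 (-3.06, SE 0.75, adjusted p 0.0029) and Th C-LTMR nuclei (-1.76, SE 0.47, adjusted p 0.0042), and neither passed without the adult library (-2.21 for Trpm8, adjusted p 0.074 and 0.073). Kcnh5 nuclei were thus at the high end for Oprd1 and at the low end for Oprm1, with Oprm1 at 17.1, 41.4 and 17.2 CPM.

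Oprk1 was highest in peptidergic C-fibre nuclei, at 6.91, 7.55 and 9.28 CPM, and in Kcnh5 nuclei, at 4.08, 4.45 and 6.89 CPM. These came from 74, 56 and 49 UMIs and from 33, 22 and 16 UMIs. Of the 2 peptidergic C-fibre clusters, the one with a median Malat1 share of 2.74% held 71, 50 and 49 of these UMIs, at 8.12, 9.30 and 10.4 CPM. The one with 0.245% held 3, 6 and 0, at 1.52, 2.94 and 0 CPM. No other subtype was above 2.74 CPM in any library. The differences were 3.33 (SE 0.34, adjusted p 1.0e-08) and 2.75 (SE 0.40, adjusted p 2.7e-06), or 4.12 and 3.58 without the adult library, and Mrgprd nuclei were lower (-2.17, SE 0.69, adjusted p 0.013). The last did not pass without any 1 of the 3 libraries (adjusted p 0.061 to 0.99). An Oprk1 UMI was seen in 5.63% to 7.50% of peptidergic C-fibre nuclei against 0.094% to 0.877% of SGC-like nuclei.

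Oprl1 was highest in A-beta and proprioceptor nuclei, the large fibres of touch and body position, at 12.0, 20.4 and 20.02 CPM. Trpm8 nuclei followed at 12.5, 12.3 and 14.7 CPM, and neither was the higher in every library. The differences were 1.74 (SE 0.20, adjusted p 7.6e-08), 1.28 (SE 0.28, adjusted p 0.00091) and, for Kcnh5 nuclei, 0.91 (SE 0.23, adjusted p 0.0020). Sst nuclei (-2.33, SE 0.46, or -3.52 without the adult library and -1.68 without aged replicate 1) and A-fibre nociceptor nuclei (-0.75, SE 0.28) were lower, with adjusted p of 0.00025 and 0.040, and the latter did not pass without any 1 of the 3 libraries (adjusted p 0.062 to 0.60).

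The A-beta and proprioceptor subtype joined 2 clusters that differed in Oprl1. The cluster with a median Malat1 share of 0.248% held 28.8, 34.6 and 39.9 CPM, and the one with 3.42% held 7.18, 7.20 and 6.88 CPM. Malat1 is a noncoding RNA kept in the nucleus, and a low share was found in 1 cluster each of 4 subtypes. Among Mrgprd nuclei, Oprl1 was at 7.20, 22.9 and 30.8 CPM in the cluster of low Malat1 and at most 5.61 CPM in the others. Th C-LTMR nuclei had 2.69, 17.5 and 3.94 CPM in that of low Malat1, against 2.32, 3.72 and 3.23 CPM. Peptidergic C-fibre nuclei had 6.09, 7.35 and 8.81 CPM, against 8.81, 8.93 and 7.43 CPM. Without the clusters of low Malat1 the Oprl1 difference of A-beta and proprioceptor nuclei was 0.67 (adjusted p 0.036). With nuclei gated on markers in place of clusters this difference did not pass (0.61, adjusted p 0.073).

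Penk in neurons had its highest level in Trpm8 nuclei, and that level differed between libraries. They held 46, 113 and 7 of the 104, 172 and 25 Penk UMIs of all neuron-like nuclei, or 18.5, 77.2 and 6.07 CPM. Every other subtype had a mean under 2 CPM. The difference was 5.50 (SE 0.47, 45.1-fold, adjusted p 1.6e-09), and it ran from 4.87 (without aged replicate 1) to 6.03 with 1 library left out in turn. The UMIs came from 19 of 155, 22 of 66 and 6 of 43 nuclei, and the 3 highest nuclei held 43.5%, 46.9% and 57.1% of them. The spread between libraries (SD 38.0 CPM on a mean of 33.9 CPM) was larger than the mean. The antisense gene that overlaps Penk, A830012C17Rik, was also highest in Trpm8 nuclei, at 3.78 ± 1.55 CPM (SD, n = 3) from 18 UMIs, against at most 1.11 CPM on average in the other subtypes.

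Cnr1 had a pair of high subtypes, peptidergic C-fibre nuclei at 32.0, 36.0 and 53.2 CPM and A-beta and proprioceptor nuclei at 20.3, 50.3 and 43.1 CPM. Neither was the higher in every library, and both means lay above the next, A-fibre nociceptor nuclei at 11.4, 18.1 and 18.5 CPM. The differences were 2.12 (SE 0.14, adjusted p 5.3e-12), 1.98 (SE 0.15, adjusted p 3.2e-11) and 0.70 (SE 0.17, adjusted p 0.0027, or 0.054 without aged replicate 2), and Kcnh5 nuclei were also higher (0.69, SE 0.18, adjusted p 0.0026). Cnr1 was lower in Sst (-2.18, SE 0.34), Th C-LTMR (-1.71, SE 0.25) and Mrgprd nuclei (-0.80, SE 0.19), with adjusted p of 9.4e-06, 3.7e-06 and 0.0011. With nuclei thinned to 1000 UMIs, the Kcnh5 difference turned (-0.42, adjusted p 0.94), and those of A-fibre nociceptor, Sst, Th C-LTMR and Mrgprd nuclei did not pass (adjusted p 0.092, 0.13, 0.99 and 0.96). Sst nuclei thus stood at the low end for Cnr1, at 2.58, 4.33 and 1.27 CPM, and at the high end for Oprm1. A Cnr1 UMI was seen in 21.7% to 35% of peptidergic C-fibre nuclei and in 0.499% to 3.10% of SGC-like nuclei. Cnr2 reached at most 3.17 CPM in any subtype and library and was not tested there.

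Some nuclei held UMIs of more than 1 receptor. Of the 739 neuron-like nuclei with an Oprd1 UMI, 495 (67.0%) also had an Oprm1 UMI, against 46.4% of all 8244 neuron-like nuclei. Of the 1144 nuclei with Cnr1, 771 (67.4%) had Oprm1, and of the 191 with Oprk1, 80 (41.9%) had Cnr1, against 13.9% of all. The nuclei with a pair had medians of 33988 to 42244 UMIs for these pairs, against 6846.5 over all, and the part of this depth in the shares was not tested.

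The likeness to other genes was measured as Pearson's r of log2(CPM + 1) over the 27 sums of 9 subtypes and 3 libraries, among 17665 genes with 100 or more UMIs. The sums share libraries, so r is given as a description. The highest r was 0.945 for Oprm1 with Gcnt2, followed by Cacna1c (0.943), a pore subunit of L-type calcium channels, and Insc (0.937). Oprd1 was most like Sp100 (0.873), Zwilch (0.845) and Mdfic2 (0.827). Oprk1 was most like the muscarinic receptor Chrm2 (0.897), the phosphodiesterase Pde1a (0.855) and Rgs20 (0.824), a regulator of G protein signalling. Cnr1 came with Myrf (0.896), Prrt3 (0.883) and Pcp4l1 (0.879), and Oprl1 with Gm45455 (0.839), Wnk3 (0.827) and C130073E24Rik (0.819). Penk came with Trank1 (0.890), Timm23 (0.887) and Ntn4 (0.874). For Cnr2, with 127 UMIs over these sums, no r exceeded 0.792.

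To examine age, aged sums were compared with the adult sum. In neuron-like sums 0 of the 7 members passed by edgeR, where 9.15% of 21922 genes did. DESeq2 passed 0 of the 7 as well. An unadjusted p under 0.05 by edgeR was reached by 4443 of the 21922 genes and by 1 of the 7 members. This member was Cnr1, with a difference of 0.62 (SE 0.23, 1.53-fold, adjusted p 0.077), higher in 2 of 2 aged libraries. Oprm1 (0.34, SE 0.22), Oprk1 (0.35, SE 0.34), Oprl1 (0.25, SE 0.26) and Oprd1 (0.13, SE 0.24) had adjusted p of 0.41 to 0.81. Penk (0.61, SE 0.35, adjusted p 0.33) was above the adult level in aged replicate 1 and below it in aged replicate 2, with -1.002 when aged replicate 1 was left out. Cnr2 differed by -0.80 (SE 0.43, adjusted p 0.28). With nuclei thinned to 1000 UMIs, Cnr1 passed (1.07, adjusted p 0.047), and it passed without the clusters of low Malat1 (0.57, adjusted p 0.031).

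Within subtypes, 2 of 38 age tests of the members passed, both in A-beta and proprioceptor nuclei. There Cnr1 rose from an adult 20.3 CPM to 50.3 and 43.1 CPM (1.06, SE 0.22, 2.08-fold, adjusted p 4.4e-05, edgeR). Oprm1 rose from 24.2 CPM to 41.0 and 42.8 CPM (0.63, SE 0.21, 1.55-fold, adjusted p 0.023). This subtype also had the highest share of all genes that passed, 19.0% of 16539. The share was 7.93% in Mrgprd, 7.17% in Kcnh5, 5.66% in A-fibre nociceptor, 3.90% in Sst, 1.69% in peptidergic C-fibre, 1.52% in Trpm8, 1.07% in Th C-LTMR and 1.05% in A-delta LTMR nuclei. The share of A-beta and proprioceptor nuclei in the cluster of low Malat1 was 38.2%, 72.6% and 68.98%. Over all neuron-like nuclei the share in clusters of low Malat1 was 18.2%, 40.2% and 29.1%. It was higher in both aged libraries in peptidergic C-fibre, Mrgprd and Th C-LTMR nuclei as well.

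Within the cluster of higher Malat1, Cnr1 was at 15.9, 44.6 and 44.2 CPM, and the difference without the clusters of low Malat1 was 1.23 (adjusted p 0.027). Within the cluster of low Malat1 it was at 35.6, 56.5 and 41.6 CPM. Oprm1 was at 20.4, 27.6 and 38.4 CPM in the cluster of higher Malat1, and its difference without the clusters of low Malat1 did not pass (0.41, adjusted p 0.47). With the Wald test of DESeq2 neither passed (adjusted p 0.066 for Cnr1 and 0.39 for Oprm1).

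**Figure D4:**
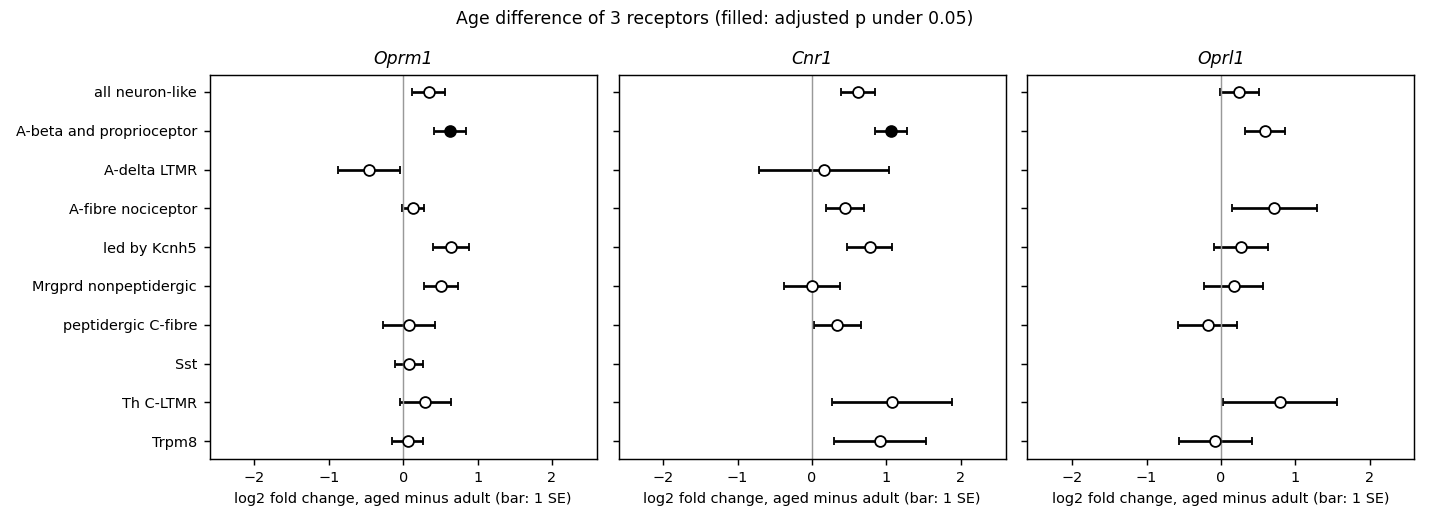
Log2 fold change of aged against adult sums for Oprm1, Cnr1 and Oprl1, in all neuron-like nuclei and in each subtype where the gene passed the low-count filter. Points are estimates from 1 adult and 2 aged libraries, bars are 1 SE, and filled points passed an adjusted p of 0.05, which only Oprm1 (0.63) and Cnr1 (1.06) in A-beta and proprioceptor nuclei did.

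In Mrgprd nuclei Cnr1 was at 5.65, 5.70 and 6.62 CPM, and in Sst nuclei at 2.58, 4.33 and 1.27 CPM. In Kcnh5 nuclei Cnr1 was at 9.39, 19.4 and 18.1 CPM (0.77, SE 0.30, adjusted p 0.11), and in A-fibre nociceptor nuclei at 11.4, 18.1 and 18.5 CPM (0.44, SE 0.25, adjusted p 0.37). In free RNA Cnr1 was at 12.2, 19.1 and 17.4 CPM. Over 54 tests of whether the age effect in a subtype differed from the mean of the other subtypes, 0 passed in edgeR. An unadjusted p under 0.05 was reached in 7 of them, and the lowest adjusted p was 0.134. Of all 16389 genes, 1583 passed in A-beta and proprioceptor nuclei, and 0 (Trpm8) to 33 (Mrgprd) in each other subtype. An unadjusted p under 0.05 was reached by 604 (peptidergic C-fibre) to 4118 genes (A-beta and proprioceptor). In most subtypes 0 passes thus set the members apart from few genes.

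Of 19 age tests of the members over all classes, 1 passed, in SGC-like sums, whose marker levels are given above. The Rasgef1c and fibroblast-marker sums made up 4 of these tests, of which 0 passed, and 0 had an unadjusted p under 0.05. Of all genes, 2204 of 12607 in Rasgef1c and 2236 of 13352 in fibroblast-marker sums had one. Oprm1 in SGC-like sums rose from an adult 18.2 CPM to 30.6 and 47.8 CPM (0.91, SE 0.23, 1.88-fold, adjusted p 0.015), where 12.2% of 14281 genes passed. These levels were 0.167, 0.235 and 0.321 times the free level, while the neuron markers in the same sums were at 0.123, 0.116 and 0.109 times theirs. The median SGC-like nucleus held 3105, 7239.5 and 7883 UMIs. The difference did not pass among nuclei with more than 2000 genes (0.45, adjusted p 0.23), with nuclei thinned to 1000 UMIs (0.25, adjusted p 0.93), with free RNA subtracted (1.57, adjusted p 0.10) or in DESeq2 (adjusted p 0.41). Of all genes, 10.5% passed in MSC-like, 7.80% in fibroblast-marker, 7.46% in Rasgef1c, 4.20% in myeloid-like, 1.71% in endothelial-like and 0.584% in lymphocyte-like sums, where 0 members passed. No member besides Oprm1 and Cnr1 had enough counts for a test in SGC-like sums.

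The machinery around these receptors was read from 4 lists. The lists were chosen by name, with earlier results of these data known. What they show in neuron-like sums stands beside a median of 0.03 over all 14498 genes, of which 35.5% were higher and 30.9% lower. A list gene that was low in the other classes could pass the low-count filter only through the neuron-like sums. A high level there was then needed for its test, so that the counts of the lists are not independent of the filter. Of 12 channels and cyclases downstream of the receptors, 10 were tested and 10 were higher in neuron-like sums, with a median difference of 2.30. Kcnj5, which was not tested, was at 0.059, 0.098 and 0.099 CPM in neuron-like sums, against a mean of 2.35 CPM in the other classes. Kcnj9, also not tested, was at 1.37, 1.89 and 2.68 CPM, against 2.10 CPM. The potassium channel subunits Kcnj3 (4.42, SE 0.15) and Kcnj6 (3.46, SE 0.21), which form the channels opened by these receptors, and the N-type calcium channel Cacna1b (3.96, SE 0.15) differed most. The list of G proteins, kinases, arrestins and RGS proteins had 20 symbols, of which 2 were older names of Grk2 and Grk3. The other 18 were all tested, and 11 were higher and 2 lower, with a median of 0.96. Rgs7 (3.50, SE 0.21), Rgs17 (2.96, SE 0.12), both of which speed the shutdown of inhibitory G proteins, and Gnao1 (2.29, SE 0.12), the alpha subunit Go, led the higher ones. The lower ones were Grk5 (-0.54, SE 0.15) and Rgs19 (-0.67, SE 0.27).

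The opioid peptide list, with the precursors, their processing and breakdown, had 8 of 11 genes tested, 5 higher and 2 lower, with a median of 1.21. The prohormone convertases Pcsk1 (3.28, SE 0.22) and Pcsk2 (3.12, SE 0.15), which cut neuropeptide precursors, were higher, and the peptidase Anpep (-3.30, SE 0.38) and the converting enzyme Ace (-1.91, SE 0.37) lower. The other opioid precursors were scarce, with 27 UMIs of Pdyn, 44 of Pnoc and 148 of Pomc in all neuron-like nuclei, and were not tested by class. Of 16 genes of endocannabinoid synthesis, breakdown and further receptors, 13 were tested, 5 higher and 4 lower, with a median of 0.26. The capsaicin receptor Trpv1 (2.83, SE 0.16), which anandamide can open, Cnrip1 (0.86, SE 0.17), whose protein binds the tail of CB1, and Gde1 (0.69, SE 0.11) led the higher ones. The 4 lower genes were Dagla (-0.57), Daglb (-0.45), Napepld (-0.58) and Abhd4 (-0.47), which encode enzymes of synthesis, as does Gde1 among the higher ones. The list genes given here with a difference had adjusted p of at most 0.031 by edgeR.

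With age, 1 of 11 tested genes of the opioid peptide list passed in neuron-like sums, and 0 of the 18, 11 and 16 tested genes of the other 3 lists, against 9.15% of all genes, so that the members of these lists passed no more often than that share. The gene was Pomc, the precursor of beta-endorphin, with 100, 24 and 24 UMIs, or 1.49, 0.588 and 0.794 CPM (-1.24, SE 0.42, adjusted p 0.035). In the other classes Pomc was at a mean of 0.945 CPM, above both aged neuron-like values. The medians of the 4 lists were -0.13 to 0.08, against 0.01 over all genes.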

How the data were processed

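Nuclei were captured by PIP-seq. The deposited values are UMI counts, not normalized, of every gene in every barcode. Per the labels and methods, the authors ran Pipseeker on mm10 to get them. The annotation and the strand setting are not given in the sources used here. The members and gene lists were chosen with earlier results of these data known.

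Barcodes with more than 1000 genes were kept, normalized with SCTransform, integrated by age (RPCA, 30 components, 3000 genes) and clustered at resolution 0.8 in Seurat 5.3.0, with the members and list genes left out. A marker counted when over 2-fold above the other clusters with a UMI in 10% of nuclei. A name needed 3 markers and, for classes other than neurons, 50% of the list, a rule set after the clusters had been seen. Classes with a cluster whose 10 leading genes held more markers of another class than of its own were not given that class's name, and their age tests are given as counts. Doublets were not called; clusters with markers of different lineages or under 50 nuclei were left out. Classes and subtypes needed 20 nuclei per library.

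UMIs were summed per class or subtype and library and tested with edgeR 4.0.16 (quasi-likelihood test, TMM, filterByExpr, prior count 0.125), with a call at a Benjamini-Hochberg adjusted p under 0.05 over all genes. The scripts were tested on simulated data. Age fits had 1 residual degree of freedom, with the lone adult library assumed to vary like the aged ones, and an exact permutation test over these libraries cannot go below p = 0.333. DESeq2 1.42.0 was an alternative. All 7 members were named. Of each list, the genes with the 3 largest differences past the threshold in neuron-like sums, and those past it with age, were named. Other list genes, and the clusters inside classes and subtypes, were named after their values had been seen, and the test of age effects between subtypes was added after the data had been seen. Positions are from GENCODE M21 on GRCm38, in which 99.6% of gene identifiers were found.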

Additional observations from a re-analysis of the deposited data

Results flagged for a closer look

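Signal of 3 members appeared in nuclei that no comparison used, those of clusters left out of every class. They held 832 Oprm1 UMIs with at least 171 in each library, 147 Cnr1 UMIs with at least 27 and 68 Oprl1 UMIs with at least 13. The 2 largest of these clusters carried neuron markers beside those of glia. In the one led by Slc1a2 and Prss35, with SGC markers, Oprm1 was at 71.4, 119 and 150.3 CPM (adult first), and in the one led by Pvalb and mt-Nd3, with MSC markers, at 65.0, 138 and 138 CPM, between the levels of the other classes and of neuron-like sums. What these nuclei are was not tested.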

How the results depend on the processing

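The results were computed again with another scaling, DESeq2, no low-count filter, nuclei of more than 2000 genes, nuclei thinned to 1000 UMIs, free RNA subtracted, a gate on markers in place of clusters, no clusters of low Malat1, equal weight for subtypes, and each library left out. Of 578 values, 489 kept their direction and their side of the threshold or stayed within the spread, and 5 reversed, while 27 of the 64 results did so under every setting. The lone adult library limits the age tests, and low counts limit Oprk1, Oprl1, Penk and Cnr2. Members under the low-count filter after thinning or gating gave no value. No paired analysis was possible because the ages share only replicate number 1.

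By class, neuron-like Penk passed with no filter (1.35, adjusted p 0.046), without clusters of low Malat1 (1.40, adjusted p 0.035) and without aged replicate 2, with leave-out values of 0.77 to 2.08. Neuron-like Cnr2 did not pass with more than 2000 genes (-0.17), thinned (-1.02) or gated (-1.01), with leave-out values of -1.47 to -1.25. In A-beta and proprioceptor nuclei, gated Oprl1 did not pass (0.61, adjusted p 0.073). Thinned Cnr1 in Kcnh5 nuclei reversed (-0.42, adjusted p 0.94).

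With age in neuron-like sums, Oprd1 reversed thinned (-0.071) and ran from -0.11 to 0.34 with an aged library left out, Oprl1 reversed without clusters of low Malat1 (-0.10), Penk ran from -1.002 to 1.30 and was 1.01 with equal weight for subtypes, and Cnr2 ran from -1.28 to -0.50. Cnr1 passed thinned (1.07) and without clusters of low Malat1 (0.57). SGC-like Oprm1 did not pass in DESeq2 (0.95), with more than 2000 genes (0.45), thinned (0.25) or with free RNA subtracted (1.57), and ran from 0.61 to 1.26. In A-beta and proprioceptor nuclei, Oprm1 did not pass in DESeq2 (0.61), with no filter (0.58), thinned (0.65), gated (0.51) or without clusters of low Malat1 (0.41), and Cnr1 did not pass in DESeq2 (1.03) while it passed under 7 other settings. Of the pairs of member and subtype, 2 passed, against 0 in DESeq2, 4 with free RNA subtracted and 1 without clusters of low Malat1.

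Of all genes, 9628 passed in neuron-like sums by class (6071 thinned) and 7908 in peptidergic C-fibre nuclei (2908 thinned). With age, 2005 passed in neuron-like sums, against 584 in DESeq2, 357 thinned and 965 with free RNA subtracted. In A-beta and proprioceptor nuclei 3143 passed, against 623 in DESeq2, 1373 thinned, 158 gated and 364 without clusters of low Malat1, and in SGC-like sums 1736, against 343 in DESeq2, 464 thinned, 598 with free RNA subtracted and 22 gated. The cause of these shifts was not tested.

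Thinning lowered the mean share of nuclei with a UMI from 77.8% to 33.8% (Oprm1) and from 27.2% to 3.77% (Cnr1) in peptidergic C-fibre nuclei, where Oprk1 went from 6.36% to 0.433%. For Oprd1 in A-fibre nociceptor nuclei it went from 17.5% to 1.97%, for Oprl1 in A-beta and proprioceptor nuclei from 15.7% to 3.04%, for Penk in Trpm8 nuclei from 19.8% to 2.24% and for Cnr2 in myeloid-like nuclei from 15.4% to 4.74%, as fewer UMIs were read.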
